A study of Homo sapiens with 7 samples.

Results

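H4, an established line of human neuroglioma cells, was followed through the first hour of light. The cells carry opto-PKR, a fusion of Cry2Olig, a plant photoreceptor that clusters under blue light, with PKR, the kinase encoded by EIF2AK2. Cells carrying Cry2Olig-PKR and lysed without illumination (0 min) were compared with cells carrying the same construct and lysed after 60 min of continuous blue light. The comparison uses 2 of the 7 libraries of a series that runs to 720 min, 1 library per time, each made with an adaptation of CEL-Seq2, which counts the 3' ends of polyadenylated transcripts with unique molecular identifiers (UMIs). Both groups carry the fusion, so neither shows cells without it. The sources used here do not say whether the line is a single clone. Unlit cells kept for the same hour, and lit cells without the fusion, were not analysed here, so light, PKR clustering and an hour in the plate cannot be told apart.

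A gene entered the comparison with at least 20 transcripts in either library, which left 12665 genes of the 18620 with any transcript in the 6 complete tables of the series. Ratios are counts at 60 min over counts at 0 min, each divided by the library's sum over genes, with an exact binomial 95% interval. With 1 library a side no test was possible. The intervals cover counting error only, and the spread between cultures was not measured. A gene is called higher here at a ratio of 2 or more, lower at a ratio of 0.5 or less, and held when its whole interval lies within 1.5-fold of equal levels.

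Active PKR phosphorylates the translation factor eIF2. That slows translation of most mRNAs while favouring a few, among them the mRNA of the transcription factor ATF4, whose targets then rise over hours; this programme is the integrated stress response (ISR). A separate and faster programme, the immediate early genes, is transcribed within minutes of many stimuli from factors already present in the cell. Its products include the EGR, FOS and JUN transcription factors, and many of its mRNAs are short-lived.

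The libraries held 8501845 transcripts at 0 min and 7048135 at 60 min, with 2.36 and 2.11 reads per UMI. The 10 most abundant genes took 2.20% and 2.40% of the transcripts, and ERCC spike-in RNA, left out of all sums, amounted to 0.00999% and 0.00845% of the gene transcripts. On the CPM scale (transcripts of a gene per 1000000 in the library), VIM stood at 815 and 874, CD44 at 655 and 714 and SOX2 at 36.0 and 44.3, while the glial markers GFAP and S100B had no transcript in either library. OLIG2 had 43 and 49 transcripts, and the neural marker NES 14 and 11. Of 11 markers of leukocytes, endothelium, epithelium and muscle, CD68 had 67 and 57 transcripts and the others between 0 and 7, with CD3E, CDH5, CDH1, KRT5 and MYOD1 at 0 in both.

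After 60 min, 332 genes were at least 2-fold higher, or 2.62% of those compared, and 106 were at least 2-fold lower, or 0.837%. The interval excluded equal levels for 330 of the higher genes and 93 of the lower ones, and lay wholly above 2-fold for 90 and wholly below 0.5 for 4. At least 4-fold differences were seen for 26 genes upward and 5 downward. Levels were held for 6729 genes (53.1%), and the median log2 ratio over all genes was 0.01. Smaller differences were common: the interval lay above equal levels for 24.8% of genes and below it for 21.7%, so counting error alone does not set a gene apart from the rest.

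**Figure D1:**
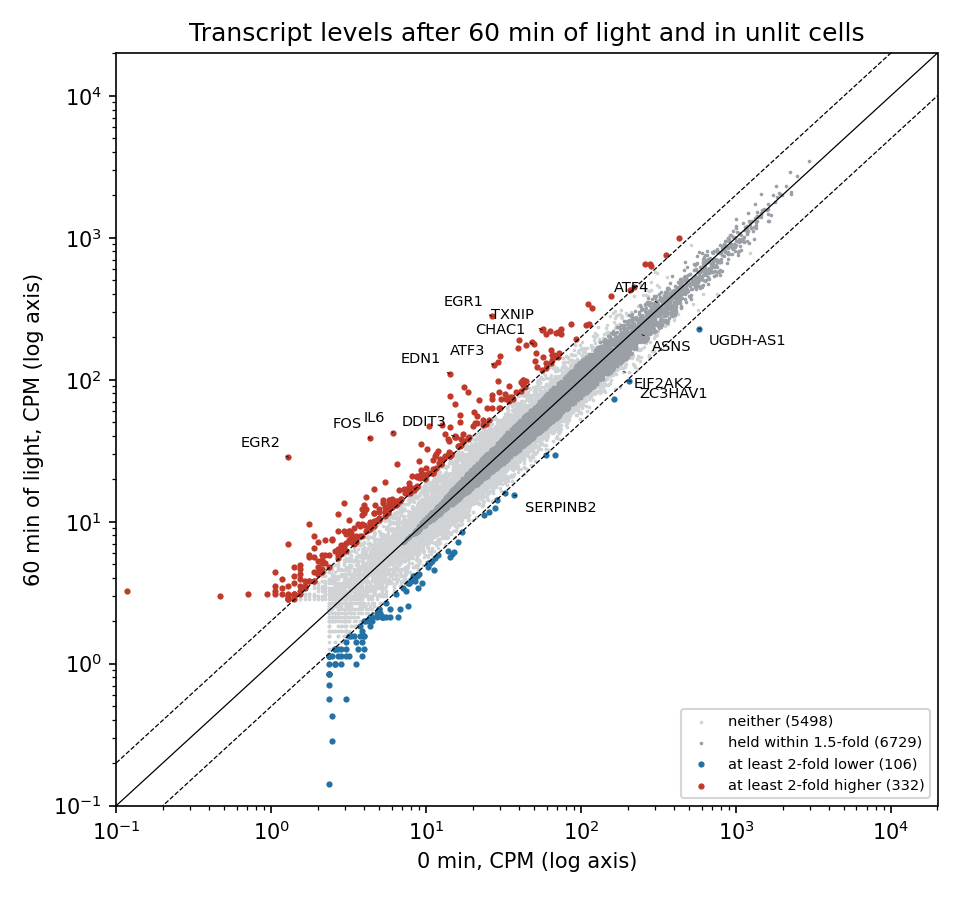
Level in CPM at 0 min (x, log axis) and after 60 min of light (y, log axis) for the 12665 genes compared, 1 library each, with dashed lines at 2-fold. The 332 higher genes (red) include EGR1, EGR2, FOS, IL6 and EDN1 far from the diagonal, and the 106 lower genes (blue) lie mostly at low levels.

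The depth sets which genes can be placed. Among the 1753 genes with a mean under 50 transcripts, 5.82% were higher, 4.45% lower and none held, because no interval was narrow enough. Among the 1881 genes with a mean of 1000 or more, 1.17% were higher, 0.106% lower and 91.0% held. The 2-fold limit falls in a dense stretch of ratios: 209 genes lay from 2 to 2.5 and 879 from 1.5 to 2. TSC22D2 was just inside (94 to 156 transcripts, 2.00-fold, interval 1.54 to 2.61), while FOXA1 (108 to 179, interval 1.57 to 2.56) was just outside. On the low side ABCA2 was the last inside, at 0.4997, and CPNE7 the first outside, at 0.5011.

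The promoters of 4 leading genes are shown as examples that hold the searched motifs, and were chosen for that. Of the 24 leading promoters matched, 11 held none of the motifs in the forms searched, those of EGR2, EDN1, ATF3 and JUN among them. Each sequence runs from 250 bases before to 50 after the start of the gene, 5′ to 3′ on the gene's strand, from RefSeq on GRCh38.p14, with matches to the searched motifs in capitals. Any other start that a gene may use, outside its window, was not searched. EGR1 (chr5:138465229-138465528, plus strand) holds a pair of CArG boxes, the binding sequence of serum response factor, from 105 to 96 and from 83 to 74 bases before the start. DUSP1 (chr5:172771146-172771445, minus strand) holds the cAMP response element TGACGTCA and a TATA box, TATAAA. IL6 (chr7:22726950-22727249, plus strand) holds an NF-kB site, and IL8 (CXCL8 in RefSeq, chr4:73740319-73740618, plus strand) an AP-1 site, TGACTCA, and a TATA box. The NF-kB pattern searched begins with GGG, so the near match GGAATTTCC in the IL8 window was not counted and stays in lower case.
EGR1: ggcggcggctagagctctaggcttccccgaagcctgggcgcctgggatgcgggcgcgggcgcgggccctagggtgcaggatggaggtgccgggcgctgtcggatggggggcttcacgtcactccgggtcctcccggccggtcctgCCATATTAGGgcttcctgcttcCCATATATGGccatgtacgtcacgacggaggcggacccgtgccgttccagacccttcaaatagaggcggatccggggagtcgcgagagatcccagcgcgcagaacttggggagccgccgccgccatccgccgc
DUSP1: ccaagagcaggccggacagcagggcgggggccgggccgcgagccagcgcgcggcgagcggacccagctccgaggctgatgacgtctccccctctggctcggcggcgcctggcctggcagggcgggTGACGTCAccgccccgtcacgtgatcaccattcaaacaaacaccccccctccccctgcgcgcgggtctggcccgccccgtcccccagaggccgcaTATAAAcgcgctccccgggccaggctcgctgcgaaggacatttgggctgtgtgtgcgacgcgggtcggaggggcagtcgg
IL6: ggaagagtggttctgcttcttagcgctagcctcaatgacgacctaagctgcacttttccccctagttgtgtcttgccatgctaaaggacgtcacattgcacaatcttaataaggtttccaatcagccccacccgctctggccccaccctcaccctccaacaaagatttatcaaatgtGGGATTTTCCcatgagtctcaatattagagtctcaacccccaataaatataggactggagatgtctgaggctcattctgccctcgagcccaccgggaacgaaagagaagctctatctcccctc
IL8: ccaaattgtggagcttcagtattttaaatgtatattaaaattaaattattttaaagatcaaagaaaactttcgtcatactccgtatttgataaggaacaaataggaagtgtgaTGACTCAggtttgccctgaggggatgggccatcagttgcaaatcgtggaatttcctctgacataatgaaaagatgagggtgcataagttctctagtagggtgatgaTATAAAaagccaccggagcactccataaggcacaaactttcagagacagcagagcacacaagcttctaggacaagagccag

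A promoter of this kind was matched for 9978 of the 12665 genes, 245 of the 332 higher genes, 68 of the 106 lower genes and 24 of the 30 leading higher genes. Both strands were searched. TATAAA was present in 11.4% of the higher genes' promoters, 25.0% of those of the leading 30 and 11.8% of the lower genes', against 5.57% of all matched promoters. The NF-kB site was present in 17.6% of the higher and 11.8% of the lower genes' promoters, against 12.7% of all. The CArG box was found in 2.04% of the higher genes' promoters against 1.08%, TGACGTCA in 4.49% against 3.36%, and the AP-1 site TGAGTCA (or its reverse complement) in 4.49% against 2.94%. In the lower genes' promoters the last 2 motifs each stood at 5.88%, and the CArG box at 1.47%. Among the 24 leading promoters these 3 motifs were found in 1 each. The EGR sites GCGTGGGCG and GCGGGGGCG stood at 1.22% and 7.76%, against 1.27% and 8.40%. These are shares of windows that hold the letters, with no test.

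The composite element through which ATF4 acts with C/EBP proteins was searched only as TGATGNAAT. That form was found in 0.441% of all matched promoters and in 3 of the 245 higher genes' (1.22%). Those 3 were ARID5B (2.17-fold), NCOA7 (2.70-fold) and ZNF460 (2.94-fold). The promoters of CHAC1, DDIT3, TRIB3 and ASNS held no match to TGATGNAAT within this window. The pattern ends in T, so near matches that differ only at that base were not counted. They include TGATGAAAC in the ASNS window. In the CHAC1 window they include GTTGCATCA, a near match to ATTNCATCA, the pattern on the other strand. These windows therefore do not show that the element is absent. PPP1R15A, MAFF, DUSP8 and SKIL were among the 11 higher genes with TGACGTCA.

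The higher genes were led by transcription factors of the immediate early class. EGR1, a zinc finger factor, had 226 transcripts at 0 min and 1973 at 60 min, a 10.5-fold ratio (95% interval 9.17 to 12.1). Its relative EGR2 went from 11 to 200 transcripts, 21.9-fold (12.0 to 44.6). EGR3 had 1 transcript at 0 min and 23 at 60 min, for an interval of 4.51 to 1143. EGR2 and EGR3 were scarce in unlit cells, and the fold of EGR3 is known only within that wide range. FOS, a subunit of the AP-1 factor, went from 37 to 272 transcripts (8.87-fold, 6.27 to 12.9). Its partners JUNB and JUN stood at 4.62-fold (246 to 943 transcripts) and 3.54-fold (505 to 1483). MYC, a growth regulator, went from 25 to 96 transcripts (4.63-fold, 2.96 to 7.51).

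Of the 26 genes on the list of immediate early transcription factors 22 were compared: 13 were higher, none was lower and 3 were held, with a median log2 ratio of 1.28 against 0.01 over all genes. EGR2 and EGR3 entered the comparison only through the 60 min library, where they are higher, so their calls add no support to the count. IER2 (2.79-fold), IER3 (2.52), MAFF (2.33) and FOSL2 (2.17) were among the higher ones. Some members were held. SRF, the factor that binds CArG boxes, was held at 0.962 (821 to 655 transcripts, interval 0.867 to 1.07), and so were CREM (0.981) and IER5 (0.969). The nuclear receptor gene NR4A1 had 69 and 77 transcripts, a ratio of 1.35 (0.96 to 1.89).

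Krüppel-like factors followed, with 7 of 13 higher, 3 held and a median log2 ratio of 1.07. KLF10, a TGF-beta-inducible repressor, went from 339 to 1336 transcripts (4.75-fold, 4.22 to 5.37) and KLF6 from 378 to 1236 (3.94-fold). KLF2, KLF4, KLF5, KLF9 and KLF15 lay between 2.09 and 2.80, with KLF4, KLF5 and KLF9 just under 2-fold on UMI counts, whereas KLF12, KLF13 and KLF16 lay between 0.909 and 0.968.

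**Figure D2:**
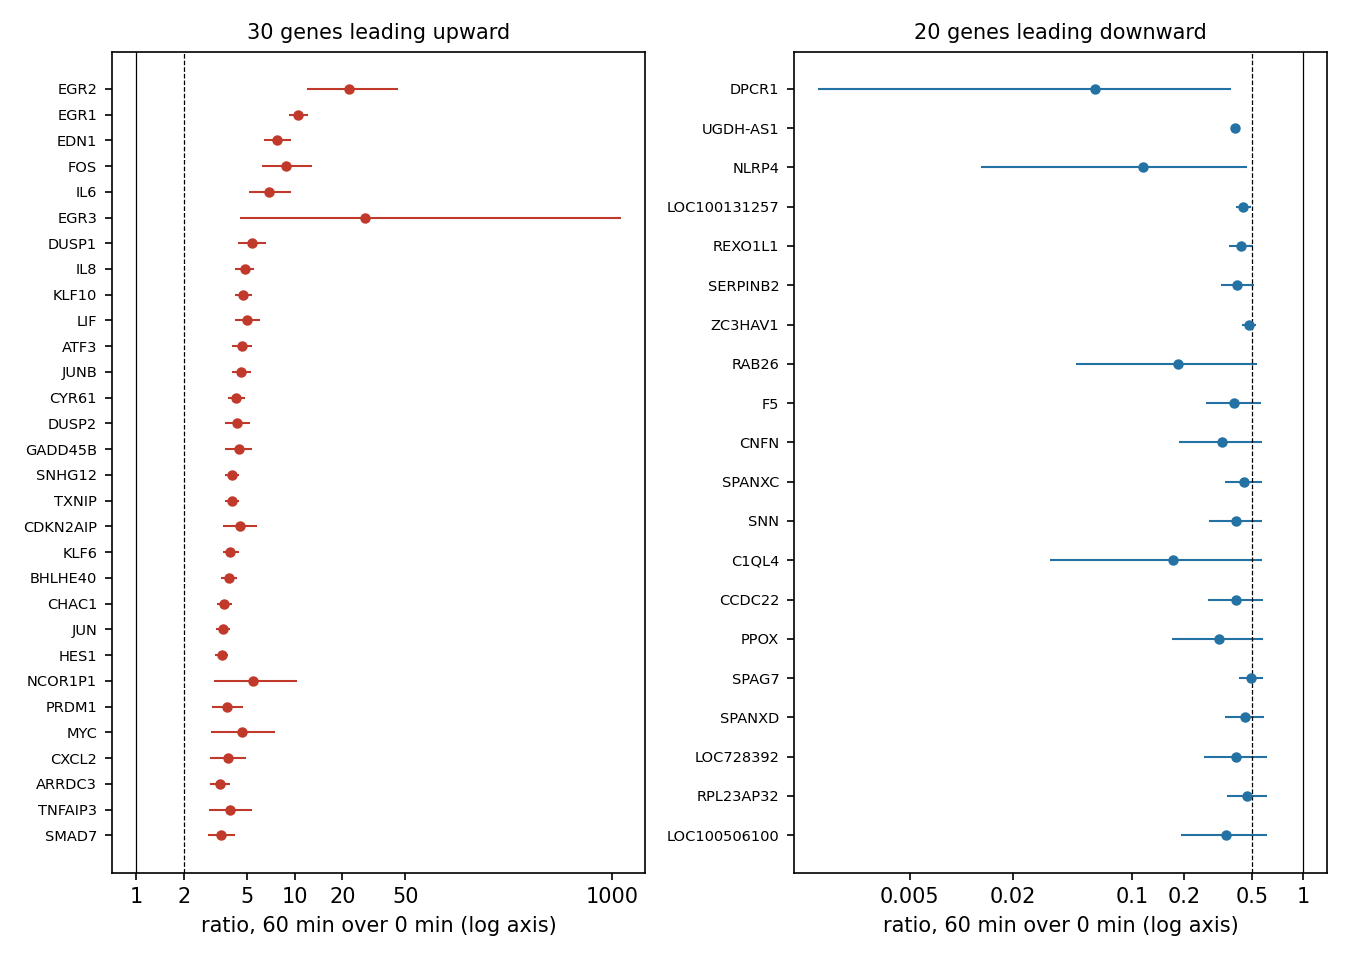
Ratio of 60 min over 0 min (log axis) with its exact 95% interval for the 30 genes with the highest lower limit among those called higher (left) and the 20 with the lowest upper limit among those called lower (right). Dashed lines mark 2-fold. EGR2 and EGR1 head the left panel and every interval there lies above 2, while most intervals on the right reach past 0.5.

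Negative regulators of MAP kinase signalling were higher alongside these factors. Of 20 phosphatases and inhibitors compared, 10 were higher, none lower and 5 held (median log2 ratio 1.10). DUSP1, a dual-specificity phosphatase that inactivates p38 and JNK, went from 121 to 539 transcripts (5.37-fold, 4.40 to 6.60). DUSP2 was 4.35-fold higher (159 to 574) and DUSP6, specific for ERK, 3.21-fold (86 to 229). The receptor tyrosine kinase inhibitors SPRY2 and SPRY4 stood at 3.54-fold and 3.03-fold, and ERRFI1, which restrains the EGF receptor, at 3.08-fold (629 to 1607). DUSP4, DUSP7 and DUSP14 were held at 1.14, 0.955 and 0.856.

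Secreted signals formed a further group: 9 of 17 cytokines and growth factors were higher, none lower and 2 held, with a median log2 ratio of 1.24. CCL20 (11 to 49 transcripts) entered only through the 60 min library, where it is higher, so its call adds no support to the count. IL6 went from 52 to 299 transcripts (6.94-fold, 5.15 to 9.50) and the IL6-family cytokine LIF from 150 to 624 (5.02-fold, 4.19 to 6.04). The neutrophil chemokine IL8 went from 256 to 1029 transcripts (4.85-fold) and CXCL2 from 79 to 248 (3.79-fold). VEGFA, an angiogenic factor, stood at 1319 and 2746 transcripts (2.51-fold, 2.35 to 2.68). EDN1, which encodes the vasoconstrictor endothelin and was on no list, went from 121 to 775 (7.73-fold, 6.37 to 9.44). GDF15, a stress cytokine, was held at 1.27 (2791 to 2938), and FGF2 at 1.04.

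In the NF-kB list subunits and feedback genes were found both among the higher and among the held genes. Of 16 genes 6 were higher, none lower and 6 held. TRAF1 (11 to 25 transcripts) entered only through the 60 min library, where it is higher, so its call adds no support to the count. TNFAIP3, a ubiquitin-editing enzyme that shuts the pathway off, went from 55 to 179 transcripts (3.93-fold, 2.89 to 5.41). PTGS2, the inducible cyclooxygenase, stood at 3.03-fold and BIRC3 at 2.74-fold. The inhibitor NFKBIA was at 1.89 (1.66 to 2.15), under the 2-fold limit. The subunit REL was higher, at 2.32-fold (26 to 50 transcripts, 1.42 to 3.88), while the subunits RELA (1.13), NFKB1 (1.04) and NFKB2 (1.08) and the inhibitor NFKBIB (1.15) were held.

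Genes that limit mRNA lifetime or growth included GADD45B (130 to 478 transcripts, 4.44-fold), GADD45A (2355 to 4601, 2.36-fold) and the mRNA-destabilising proteins ZFP36 (2.61-fold) and ZFP36L1 (2.23-fold). On UMI counts without the collision correction GADD45A and ZFP36L1 fell short of 2-fold, at log2 ratios of 0.83 and 0.78. In that list 5 of 15 were higher, 2 were held (BTG2 and BTG3) and none was lower. Among ID proteins and SMAD feedback genes 5 of 12 were higher, including SMAD7 (140 to 399 transcripts, 3.44-fold) and ID1 (3658 to 6998, 2.31-fold, but a log2 ratio of 0.68 on UMI counts), and none was lower. CYR61 (335 to 1188, 4.28-fold), CTGF (2.90-fold) and AMOTL2 (2.06-fold, a log2 ratio of 0.77 on UMI counts) were the 3 higher genes among 17 targets of SRF and YAP, of which 8 were held, ACTB (1.16) and VCL (1.13) among them. In the clock list BHLHE40, a transcriptional repressor, went from 409 to 1303 transcripts (3.84-fold), and NFIL3 and C1orf51 stood at 2.19 and 2.02, the latter at a log2 ratio of 0.94 on UMI counts. The other 13 clock genes were under 2-fold, with CLOCK, ARNTL, BHLHE41, CRY2 and DBP held.

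Other leading genes belonged to none of these lists. TXNIP, an arrestin-like inhibitor of thioredoxin and glucose uptake, went from 476 to 1582 transcripts (4.01-fold, 3.62 to 4.45), and the arrestin-like ARRDC3 from 246 to 690 (3.38-fold). HES1, a Notch target, stood at 3.46-fold (537 to 1542) and PRDM1, a transcriptional repressor, at 3.78-fold (108 to 338). CDKN2AIP, a regulator of the ARF-p53 pathway, went from 89 to 333 (4.51-fold). The pseudogene NCOR1P1, from 15 to 68 transcripts, shares sequence with its parent gene, so its reads may be divided between the copies. Of the 332 higher genes, 106 belonged to at least 1 of the 29 lists, 70 of them to a list other than the zinc finger genes, and 226 to none. Over all genes compared 6.66% belonged to a list, and 3.65% to one other than the zinc finger genes.

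Most ISR core transcripts stood above their unlit level, by amounts that differed widely. Of 24 genes on the core list 22 were compared: 5 were higher, none lower and 8 held, with a median log2 ratio of 0.25. Intervals lay above equal levels for 14 of the 22 and below for 2 (24.8% and 21.7% over all genes). CHAC1, an enzyme that degrades glutathione, went from 420 to 1254 transcripts (3.60-fold, 3.22 to 4.03). DDIT4, an inhibitor of mTORC1, went from 946 to 2387 (3.04-fold, 2.82 to 3.29). PPP1R15A, the phosphatase subunit that returns eIF2 to its unphosphorylated form, went from 433 to 1081 (3.01-fold, 2.69 to 3.37). These 3 ratios all had intervals above 2. DDIT3, which encodes the transcription factor CHOP, went from 130 to 280 (2.60-fold, 2.10 to 3.22), and CTH, a cysteine synthesis enzyme, from 85 to 150 (2.13-fold, 1.62 to 2.81). ATF3, a stress factor counted here on the immediate early list and not among these 5, went from 232 to 896 (4.66-fold, 4.03 to 5.41).

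A middle set lay between the limits. SESN2, an mTORC1 regulator, stood at 1.90 (172 to 271 transcripts, 1.56 to 2.31), PPP1R15B, the constitutive partner of PPP1R15A, at 1.91 (347 to 550) and the secreted protein gene STC2 at 1.83 (1368 to 2070). All 3 intervals lay above equal levels.

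Other classical ATF4 targets were at or below their unlit level at 60 min. TRIB3, a pseudokinase, had 379 transcripts at 0 min and 252 at 60 min, a ratio of 0.802 (0.681 to 0.943). ASNS, asparagine synthetase, stood at 2103 and 1463 (0.839, 0.784 to 0.897) and ATF5 at 1464 and 1011 (0.833). ATF4 itself was held, at 2644 and 2463 transcripts, 1.12-fold (1.06 to 1.19). The mRNA level of ATF4 does not report its translation, which these libraries did not measure.

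Genes of amino acid synthesis and transport gave 0 higher, 0 lower and 16 held of 21. PSAT1 stood at 1.07, SLC7A11, the cystine transporter, at 1.18 and PHGDH, the entry enzyme of serine synthesis, at 0.710 (1695 to 998 transcripts). SLC38A2, a neutral amino acid transporter, was the highest at 1.44 (1.34 to 1.53). Of 20 cytosolic tRNA synthetases 19 were held and none was higher or lower, with a median log2 ratio of -0.18. DARS was highest at 1.19 and MARS lowest at 0.686. Over all genes 2.62% were higher and 0.837% lower, so the absence of calls among so few genes does not set either list apart. The held share was 53.1% over all genes and 91.0% at a mean of 1000 transcripts or more.

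**Figure D3:**
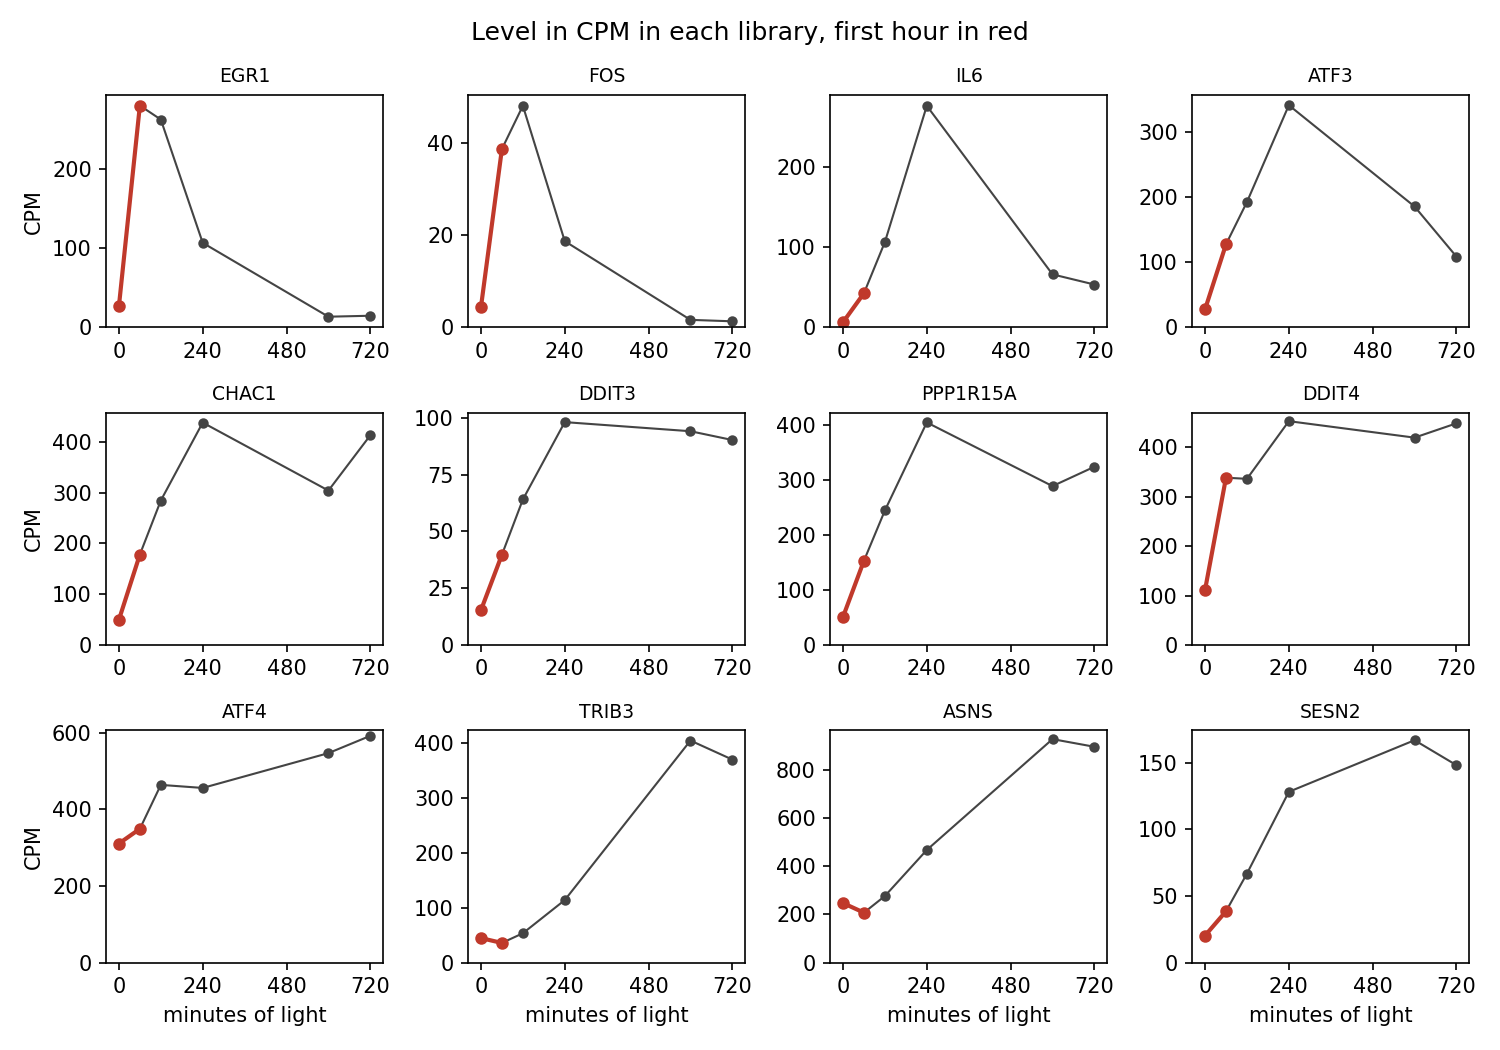
Level in CPM (y, from 0) in the libraries at 0, 60, 120, 240, 600 and 720 min of light (x), 1 library per time, with the first hour in red. EGR1 stands highest at 60 min, CHAC1, DDIT3, PPP1R15A and DDIT4 are already above the unlit level at 60 min, and TRIB3 and ASNS are not.

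The later libraries place these values in time. On the CPM scale EGR1 stood at 26.6 in unlit cells and 280 after 60 min, then at 262, 106 and 13.2 in the libraries of 120, 240 and 600 min. IL6 stood at 6.12, 42.4, 106, 277 and 66.0 at the same times. TRIB3 stood at 44.6, 35.8, 53.4, 114 and 404, and ASNS at 247, 208, 277, 468 and 929. EGR1 was at its highest of these at 60 min, IL6 at 240 min, and TRIB3 and ASNS at 600 min. The series has a further time between 240 and 600 min whose library was not used, so peaks are among the times used. Of the 30 leading higher genes, 1 peaked in the 60 min library, 11 in that of 120 min, 16 in that of 240 min and 1 in each of the last 2. Genes listed for late changes in the series gave no call at 60 min: the 4 late-rising genes compared had ratios between 0.639 and 1.16, and the 7 late-falling ones between 0.717 and 0.931. Those lists were chosen on these same libraries.

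EIF2AK2 stood below its unlit level, short of 2-fold, at 1598 transcripts at 0 min and 805 at 60 min, a ratio of 0.608 (0.558 to 0.662). The fusion contains PKR, and the counts do not tell endogenous transcripts from any that the construct contributes. Levels were 188, 114, 87.2, 67.1, 121 and 124 CPM at 0, 60, 120, 240, 600 and 720 min. The other eIF2 kinases were held: EIF2AK1 at 1.00, EIF2AK3 at 0.982 and EIF2AK4 at 1.06. Across the eIF2 pathway and initiation factors 17 of 20 were held (53.1% over all genes). None was called, against 2.62% higher and 0.837% lower over all genes, too few genes to set the list apart. EIF4EBP1, a translation repressor, stood at 0.670 (515 to 286).

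Among 89 stress genes of other kinds 1 was higher (1.12%, against 2.62% over all genes) and none was lower (0.837% over all), a count too small to set these lists apart. Of the 89, 65 were held (73.0%, against 53.1% over all genes), a share that depth moves with. At a mean of 1000 transcripts or more 35 of 37 were held (94.6%, against 91.0% over all genes). Of 20 ER chaperone and degradation genes 16 were held and none was called. HSPA5, the ER chaperone BiP, stood at 6042 and 4036 transcripts (0.806, 0.774 to 0.839). CRELD2 stood at 0.644 and SDF2L1 at 0.591, both short of 2-fold, and HERPUD1 was at 1.27. Cytosolic heat shock genes gave 16 held of 18, with DNAJB1 at 1.01 and HSPA1A, which has a near-identical copy, at 0.860. NRF2 targets gave 15 held of 16, the exception being HMOX1, haem oxygenase, at 1.60 (1.30 to 1.99). Of 16 p53 targets PMAIP1, the BH3-only protein NOXA, was called, at 2.35-fold (346 to 675), while CDKN1A stood at 0.716 and MDM2 at 1.19. Interferon-stimulated genes gave no call among 19, with 9 intervals below equal levels: ISG15 stood at 0.657 (869 to 473) and IFIT3 at 0.574 (349 to 166), and IRF1, an interferon-induced factor, at 1.96 (770 to 1252).

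Of 118 genes on growth and housekeeping lists 99 were held (83.9%, against 53.1% over all genes), a share that depth moves with. At a mean of 1000 transcripts or more it was 91.0% both in these lists and over all genes. None of 20 mitotic genes was called and 19 were held, with CDK1 at 1.07 and PTTG1 at 0.644. DNA replication gave 17 held of 20, and glycolysis 17 of 19, with GAPDH at 1.10 and ENO1 at 0.865. In the proteasome list 22 of 25 were held and 20 intervals lay below equal levels, with a median log2 ratio of -0.22. In cholesterol synthesis 12 of 19 were held and none called, with LSS lowest at 0.554 (368 to 169). Splicing factors of the SR class had 1 higher gene of 15, the kinase CLK1 (2.32-fold), and SRSF1 at 0.690. The held genes with the narrowest intervals at 3800 UMIs or fewer included ANXA5 (1.25, 1.21 to 1.28), CFL1 (1.07), HNRNPA2B1 (1.04) and RPS2 (1.00, 0.973 to 1.03). These genes lay close to that UMI limit, so their intervals cover only part of the counting error. H3F3A and its copy H3F3AP4 carried 10559 transcripts each at 0 min, so reads shared by near-identical copies may have been counted under both.

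**Figure D4:**
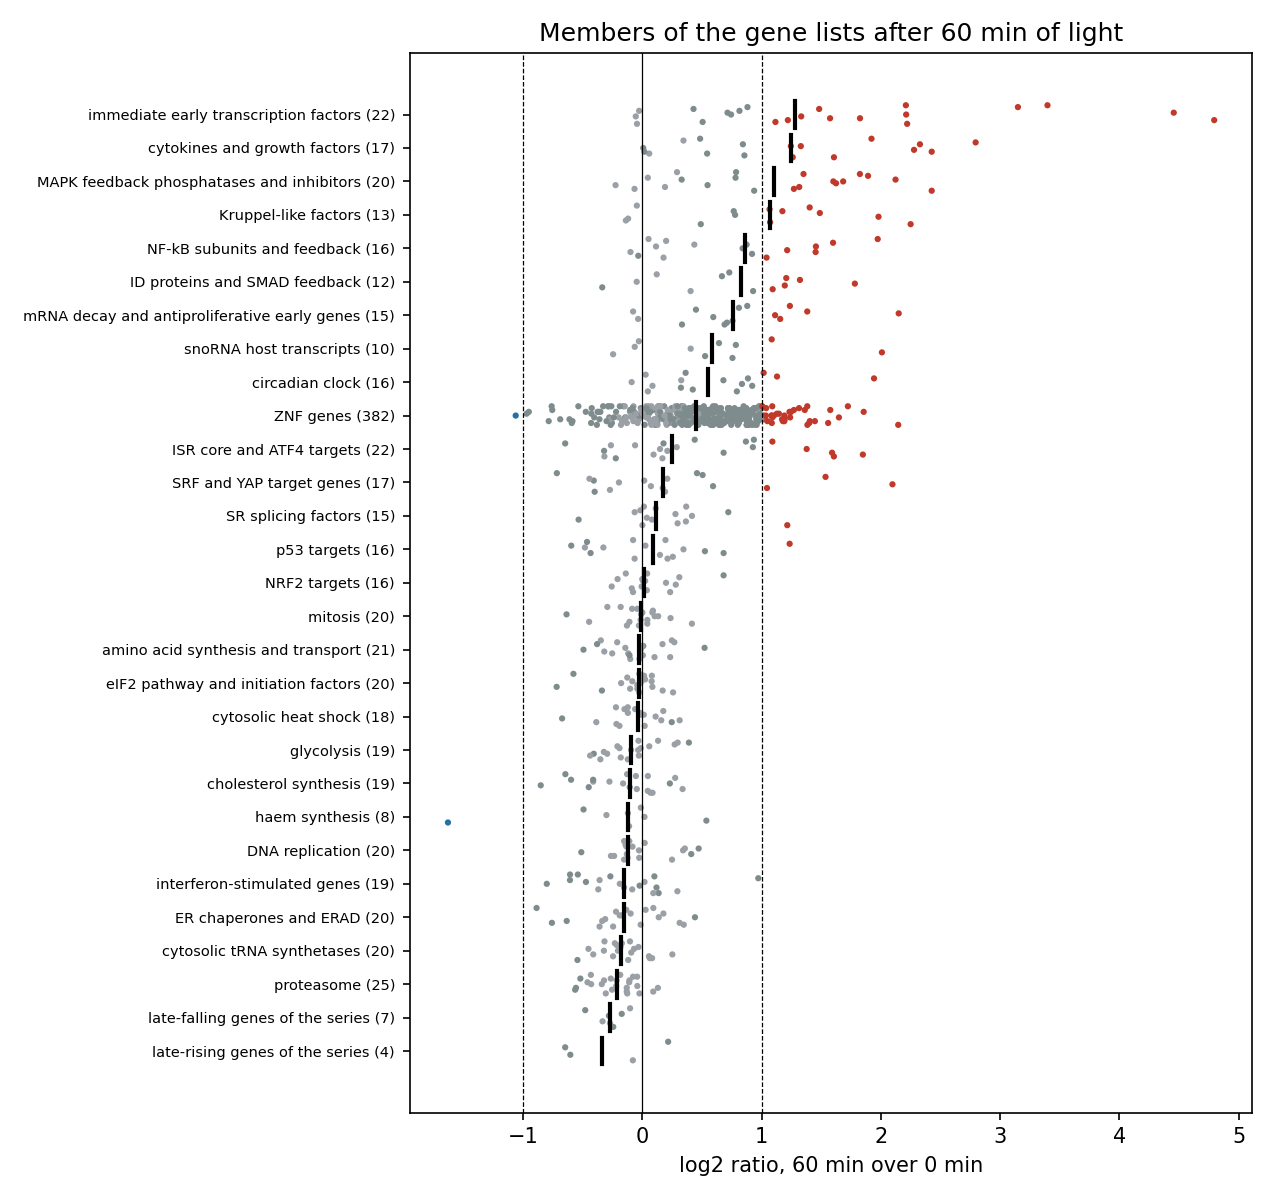
Log2 ratio of 60 over 0 min (x) for every compared member of the 29 gene lists (y, members compared in parentheses), each point 1 gene, red for higher, blue for lower and grey otherwise, with black bars at list medians and dashed lines at 2-fold. The immediate early, cytokine, MAP kinase feedback and Krüppel-like lists have medians above 1, and the metabolic and housekeeping lists lie around 0.

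Some transcripts of other kinds were also higher. Host transcripts of small nucleolar RNAs, which are spliced but mostly not translated into protein, had 2 of 10 called: SNHG12 (480 to 1601 transcripts, 4.02-fold, 3.63 to 4.46) and SNHG15 (3009 to 5289, 2.12-fold, a log2 ratio of 0.69 on UMI counts). SNHG1 (1.72) and GAS5 (1.69) had intervals above equal levels, and SNHG5 (0.980), SNHG16 (0.957) and SNHG3 (0.844) were held.

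Zinc finger genes named ZNF formed a broad low-level shift. Of 382 compared, 36 were higher (9.42%, against 2.41% of all other genes) and 1, ZNF76, was lower, and their median log2 ratio was 0.45. ZNF19, ZNF77 and ZNF442 entered only through the 60 min library, where they are higher, so their calls add no support to the count. Intervals lay above equal levels for 206 and below for 17. ZNF441 went from 112 to 291 transcripts (3.13-fold, 2.51 to 3.93), ZNF473 from 355 to 666 (2.26-fold) and ZNF823 from 253 to 445 (2.12-fold, a log2 ratio of 0.99 on UMI counts). On chromosome 19, which carries the largest clusters of these genes, 25 of 187 were higher, and 11 of 195 elsewhere. Many members share similar sequence, so reads may be assigned imprecisely.

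Transcript length and base composition moved with the ratio across all genes. Among genes whose counts in the 2 libraries sum to 200 or more, the median log2 ratio was -0.18 in the 20% of genes with the shortest transcripts (up to 1733 bases) and 0.17 in the 20% with the longest (from 5507 bases). By GC content it went from 0.20 in the 20% of genes with the lowest GC (up to 41.1%) to -0.16 in the 20% with the highest (from 57.7%). Their part in the zinc finger, proteasome and housekeeping values above was not tested. The higher ZNF genes had a median transcript GC of 42.6%, against 48.6% over all genes. The shares called at least 2-fold higher were 0.952%, 2.36%, 1.52%, 2.13% and 1.29% from the shortest to the longest 20%. From the lowest to the highest GC they were 2.08%, 1.57%, 1.91%, 1.29% and 1.40%.

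**Figure D5:**
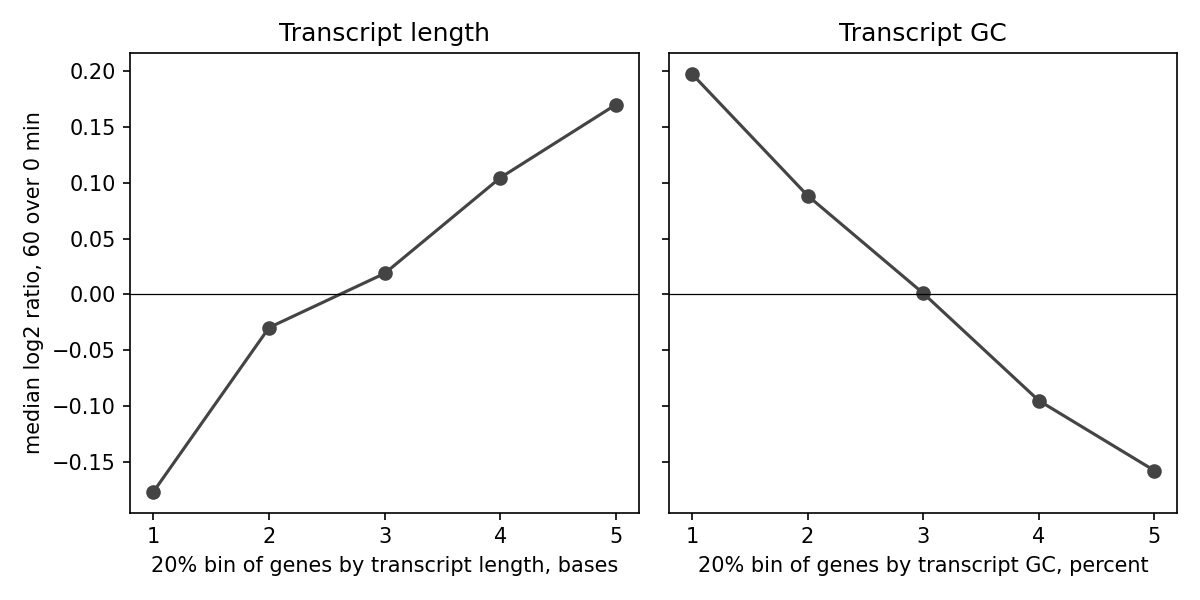
Median log2 ratio of 60 over 0 min (y) in bins of 20% of genes by transcript length (left) and GC content (right), about 1782 genes each, from GENCODE v29 transcripts. The medians run from -0.18 to 0.17 with length and from 0.20 to -0.16 with GC.

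The higher genes also shared features of gene structure that the ratio did not use. A GENCODE transcript was matched for 277 of the 277 protein-coding higher genes, 83 of 85 lower ones and 11751 of 11795 overall. The higher genes had a median of 6 exons against 9 over all genes, 4 among the leading 30 and 8 among the lower genes. The share with 4 exons or fewer was 39.4% of the higher genes, 71.4% of the leading 30 and 31.3% of the lower genes, against 19.8% of all. The AU-rich pentamer ATTTA, a sequence known from the 3′ UTRs of unstable mRNAs, was present in the 3′ UTR of 82.3% of the higher genes, 47.0% of the lower genes and 68.8% of all. The longer element TATTTAT was present in 49.1%, 13.3% and 32.6%. Both elements hold only A and T. Median transcript GC was 46.3% in the higher genes, 58.0% in the lower genes and 48.6% over all. Its part in these shares was not tested. Median 3′ UTR lengths were 1200, 695 and 1037 bases, so longer UTRs give more room for a match. Per 1000 bases of 3′ UTR the higher genes had a median of 2.74 ATTTA matches and all genes 1.71.

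Lower genes were fewer and mostly scarce. Of the 106, 104 belonged to no list, but only 6.66% of all genes compared belonged to any, so this count does not set the lower genes apart. Among the lower genes with the most transcripts were non-coding ones. UGDH-AS1, an antisense transcript at the UGDH gene, went from 4886 to 1616 transcripts (0.399, 0.377 to 0.422), and LOC100131257 from 1398 to 518 (0.447, 0.403 to 0.495). ZC3HAV1, which encodes the antiviral zinc finger protein ZAP, went from 1730 to 692 (0.483, 0.441 to 0.527), and SERPINB2, the inhibitor of urokinase, from 316 to 108 (0.412, 0.328 to 0.514). On UMI counts UGDH-AS1 stood at a log2 ratio of -0.89 and ZC3HAV1 at -0.94, and on read counts ZC3HAV1 at -0.91, all short of 2-fold. Whether the counting used strand is not given, so reads of UGDH-AS1 and of UGDH may not be told apart.

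The remaining leading lower genes had fewer transcripts. PPOX, an enzyme of haem synthesis and the single call among 8 genes of that list, went from 56 to 15 (0.323, 0.170 to 0.579). It entered the comparison only through the 0 min library, where it is higher. The coagulation factor gene F5 went from 122 to 40 (0.395) and SNN from 128 to 43 (0.405). DPCR1 had 20 transcripts at 0 min and 1 at 60 min, for an interval of 0.00146 to 0.377. SPANXC (237 to 88) and SPANXD (217 to 82) belong to a family of near-identical genes, as do REXO1L1 and its copies, and RPL23AP32 is a ribosomal protein pseudogene, so these values are uncertain. Of the 20 leading lower genes 7 had the lowest of their 6 levels in the 60 min library, 2 in that of 120 min, 4 in that of 240 min and the other 7 later. UGDH-AS1 stood at 575, 229, 165, 166, 151 and 191 CPM at 0, 60, 120, 240, 600 and 720 min, whereas SERPINB2 stood at 37.2, 15.3, 43.3, 44.5, 36.6 and 25.3.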

How the data were processed

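RNA of 1 library at 0 min and 1 at 60 min was compared. The authors deposited expected counts, which are not always whole numbers, of transcripts per gene, with read and UMI tables beside them. The transcript values match their UMI counts after a correction for collisions among 4096 UMIs (largest difference 5.6e-10). The submitters' processing notes name BWA and hg19. The sources used here give neither their versions, the annotation, the use of strand nor the treatment of reads matching several genes.

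The column of primer 4, named per the labels, was used, and counts were rounded to whole numbers. The 190 other barcode columns of the 2 tables are matched to no sample here and were not used. ERCC rows were left out. Ratios were counts over each library's gene sum, with exact binomial (Clopper-Pearson) 95% intervals (Python 3.11.15, scipy 1.17.1). The intervals take corrected counts as plain counts, so for abundant genes they cover only part of the counting error. Over 3800 UMIs the correction is steep: 42 and 20 genes of the 2 libraries were past that, and 0 of the called genes. The ratio and its calls were checked on simulated data. Alternatives used edgeR 4.0.16 in R 4.3.3 for scaling only, UMI or read counts, other minimum counts, thinning to equal depth, leaving out genes over 3800 UMIs, and a prior count of 2.

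The comparison, the 29 gene lists and the naming rule were chosen with earlier results of these data known. Named genes were the 30 higher genes with the highest lower limits, the 20 lower genes with the lowest upper limits, called list members, the 4 most abundant members of each list, 11 ISR genes, and the 10 held genes with the narrowest intervals under the UMI limit. Members outside this rule were named after their values were seen, to show the range of their list. Transcript features and the gene families of the closing section were added after the calls were known. Symbols were matched to RefSeq promoters through symbols and synonyms on the same chromosome. Transcript features come from the GENCODE v29 transcript with the longest coding sequence. The files use hg19 and both references GRCh38, so only the promoters carry coordinates.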

Additional observations from a re-analysis of the deposited data

How the results depend on the processing

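With 1 library a side, neither leaving out a replicate nor a test was possible, and no paired analysis was possible because there are no replicates. The counts of higher, lower and held genes (332, 106 and 6729) stayed within 1.5 times under TMM scaling (326, 110 and 6713), median-of-ratios scaling, UMI counts (245, 130 and 6863), thinning to equal depth, and leaving out genes over 3800 UMIs. With a prior count of 2, 304 were higher and 79 lower, and held genes were not counted. With read counts 507 genes were higher, with a median log2 ratio of 0.10 over the same genes, and 324 of them were shared with the 332. A minimum of 10 counts gave 234 lower genes and a minimum of 50 gave 43. With no minimum 1496 were higher and 1022 lower. No called gene among the 249 named changed direction in any of the alternatives run, but calls were lost: of 134 called, 21 were under 2-fold with UMI counts, 6 after thinning, 5 with read counts, 3 with the prior and 1 under each scaling. UMI counts moved 69 of the 249 named ratios past their intervals and read counts 79, and the other alternatives moved none. The cause was not tested. Below 50 transcripts depth limited every call of a held gene.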

Other observations

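Gene families taken by symbol alone, and not described above, shifted by small amounts. Of 80 nuclear-encoded subunits of oxidative phosphorylation none was called, 58 were held and 69 had intervals below equal levels, with a median log2 ratio of -0.37. NDUFA4, at 6695 and 4189 transcripts, stood at 0.755 (0.726 to 0.785) and COX6A1 at 0.879. The 81 cytosolic ribosomal proteins, whose many pseudogenes make counts uncertain, had 78 held and a median of -0.20, and the 76 mitochondrial ones 60 held and a median of -0.19. Most of these mRNAs are short, and short transcripts had lower ratios over all genes (median -0.18 in the 20% of genes with the shortest). Its part in these medians was not tested.

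Replication-dependent histone genes, whose main mRNAs lack a poly(A) tail, had 3 of 16 higher, against 2.62% over all genes. HIST1H4C went from 2195 to 4607 transcripts (2.53-fold, 2.41 to 2.66). HIST1H1D went from 13 to 35 (interval 1.68 to 6.69) and HIST1H2AC from 11 to 20 (1.002 to 5.07). HIST1H1D and HIST1H2AC entered the comparison only through the 60 min library, where they are higher, so their calls add no support to the count. HIST1H2BK was held at 0.897 (2104 to 1564). Among 178 solute carrier genes SLC4A7, a bicarbonate transporter, stood at 2.71-fold (228 to 512) and SLC16A6 at 2.04-fold (26 to 44), with a median log2 ratio of 0.01 and 91 held. Of 35 BTB and kelch genes 16 had intervals above equal levels and 1 was higher, near the 2.62% over all genes: KLHL11, from 12 to 34 transcripts. KLHL11 also entered only through the 60 min library, where it is higher.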
